A study of Rattus norvegicus with 6 samples.

Results

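The genes described here encode alcohol dehydrogenases, aldehyde dehydrogenases, aldo-keto reductases, carbonyl reductases, short-chain dehydrogenases of the DHRS group and retinol dehydrogenases. They were chosen as all genes whose rat symbol starts with Adh, Aldh, Akr, Cbr, Dhrs or Rdh followed by a digit, except Aldh1l1 and Akr1b1. The RefSeq table of the GRCr8 assembly names 88 such genes, 57 of them had a probe that could be named, and 50 passed the filter on dim probes, among 31582 genes or sequences tested in all. To pass, a gene needed a probe that the scanner flagged as well above background on every one of the 3 arrays of a group. Of the 50 members, 49 were well above background on all 6 arrays, and Rdh7 was so on 2 of 3 control and all 3 BBMP arrays. Adh7, Akr1b7, Akr1c14, Akr1c2, Akr1c3, Akr1d1 and Dhrs9 did not pass and were not tested.

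Renal cortex was taken from male Sprague-Dawley rats, Crl:CD(SD), purchased at 5 weeks of age, and 6 samples were each measured on a one-colour Agilent array. Corn oil, the vehicle, was given to the 3 control rats over 4 weeks. BBMP, or 2,2-bis(bromomethyl)-1,3-propanediol, is a diol that carries bromine, and the 3 BBMP rats were dosed with 1000 mg/kg/day over the same 4 weeks. The labels name no genetic alteration, and whole cortex was used, so fewer cells of a type and less RNA per cell cannot be told apart.

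These enzymes move hydrogen between a cofactor, NAD or NADP, and an alcohol or carbonyl group. Alcohol dehydrogenases turn alcohols into aldehydes, aldehyde dehydrogenases turn aldehydes into acids, and aldo-keto and carbonyl reductases turn aldehydes and ketones back into alcohols. Retinol dehydrogenases and retinaldehyde dehydrogenases apply the same chemistry to vitamin A and make retinoic acid. In the proximal tubule several of these enzymes also serve amino acid breakdown, carnitine synthesis and the clearance of reactive aldehydes.

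The share of probes well above background ran from 67.2% to 68.6% on control and from 70.5% to 72.7% on BBMP arrays. The 12 proximal tubule markers looked at, including Slc34a1, Lrp2 and Cubn, were well above background on all 6 arrays, and their summed signal over the array's 75th percentile ranged from 1696 to 1781 in control and from 1745 to 1777 in BBMP samples. Slide 1, scan 1 held the control arrays and slide 2, scan 2 the BBMP arrays, and what came with treatment cannot be told apart from what came with slide or scan. The labels call the samples of a group biological replicates, and a replicate is named here by its scanner file. Values are log2 processed signals minus the array's 75th percentile, and differences are BBMP minus control. A gene was called higher or lower where its limma p, adjusted by the Benjamini-Hochberg method over all genes tested, was under 0.05.

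Of the 50 members, 5 were called higher and 0 lower in BBMP samples: the aldo-keto reductase gene Akr7a3, the retinol dehydrogenase gene Rdh12, the aldehyde dehydrogenase genes Aldh8a1 and Aldh9a1, and Dhrs11. The 5 make up 10% of the members, against 10.2% of all genes called higher, and the count of 0 stands beside 7.68% of all genes called lower. In limma 11 of the 50 members had an unadjusted p under 0.05, as did 11564 of all 31582 genes tested. The groups did not overlap in 16 members, or 32%, against 43.6% of all genes: BBMP was the higher group in 12 members (24%, against 25% of all genes) and the lower in 4 (8%, against 18.6%). Without control replicate 1, control replicate 2, BBMP replicate 1 or BBMP replicate 2, 0 members were called, and 2 were called without control replicate 3 or BBMP replicate 3. Those first omissions, in that order, left 1828, 1537, 976 and 3 of all genes called. Without control replicate 3 or BBMP replicate 3, 4002 and 1631 were called, against 5659 with all arrays. The median difference was 0.15 over the members and 0.049 over all genes, and 34 of 50 members had a positive difference, as did 56.4% of all genes. The shares called higher and lower depended on the scaling: among all called genes, 57.1% were higher, while quantile normalization gave 49.0%, cyclic loess 46.6%, median scaling 35.9% and normexp background correction 36.4%. Normexp moved the median of all genes by -0.11. The members' counts were 4 higher with quantile normalization or cyclic loess, 3 higher with median scaling, and 6 higher and 1 lower with normexp. Of all genes tested, quantile normalization called 8.21% higher and 8.55% lower, and cyclic loess 8.04% and 9.2%. Median scaling called 6.66% higher and 11.9% lower, and normexp 9.24% and 16.1%. The 6 adrenal markers summed to 0.60 to 0.64 in control and 0.80 to 0.83 in BBMP samples, with 1 called higher (Cyp21a1) and Cyp11b1 and Star not above background on any array. The 6 markers of medulla, papilla and urothelium summed to 0.41 to 0.47 in control and 0.49 to 0.60 in BBMP samples, with 1 called higher (Upk1b) and Upk2 not above background on any array. The part of either list in the members' differences was not tested.

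**Figure D1:**
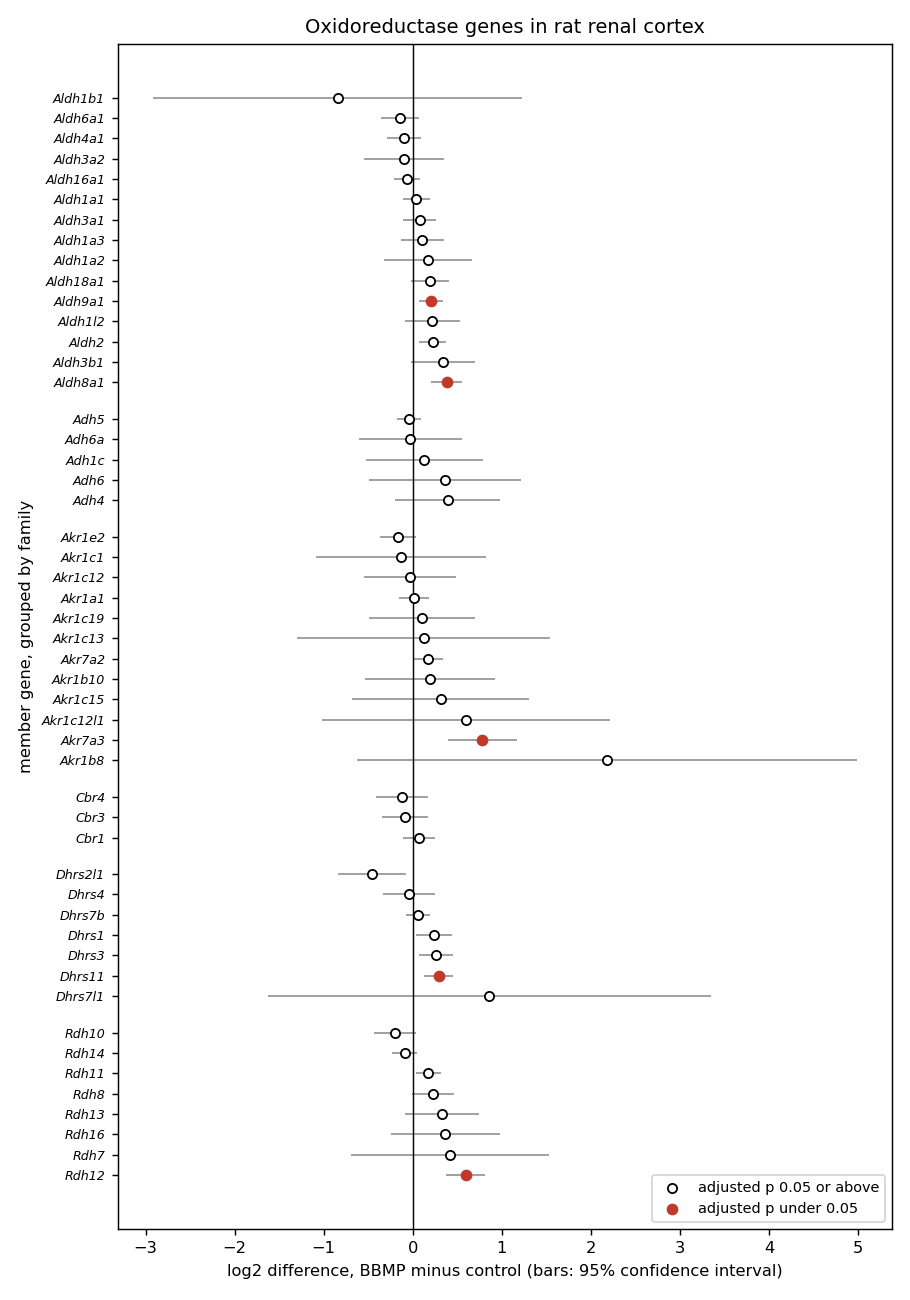
Log2 difference, BBMP minus control, of each of the 50 members with its 95% confidence interval from limma (3 arrays per group), grouped by gene family. Filled points are the 5 members called higher, and the widest intervals belong to Akr1b8, Dhrs7l1 and Aldh1b1.

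The promoter of Akr7a3, the called member with the largest difference, is shown as the 250 bases before its annotated start (RefSeq, GRCr8, chr5:156876471-156876720, plus strand). The core of the antioxidant response element, TGACNNNGC on either strand, was looked for in the 300 bases from 250 before to 50 after the start. The promoter of Akr7a3 held no match in that window.
Akr7a3: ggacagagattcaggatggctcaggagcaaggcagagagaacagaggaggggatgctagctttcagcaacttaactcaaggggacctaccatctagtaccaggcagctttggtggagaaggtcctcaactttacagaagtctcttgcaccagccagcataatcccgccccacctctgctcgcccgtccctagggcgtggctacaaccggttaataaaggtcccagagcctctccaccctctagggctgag
The element's core was present in 4 of the 41 members with a promoter in the table, or 9.76%, and in 12.1% of all 33469 promoters. Of the 5 called members, 1 held it, Aldh9a1. A match is a description of the letters, and its absence says only that these letters are not in this window.

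Aldo-keto reductases of general aldehydes had 1 of 6 members called higher and 0 lower, beside 10.2% and 7.68% of all genes. Akr7a3 encodes the aldehyde reductase that in rat acts on the dialdehyde of aflatoxin. Its log2 signal was 6.84, 6.83 and 6.58 in control replicates 1 to 3 and 7.37, 7.38 and 7.85 in BBMP replicates 1 to 3. The groups did not overlap, and all 3 BBMP animals were above every control. Akr7a3 was 1.72-fold higher, with a log2 difference of 0.78 ± 0.16 (SE, n = 3 per group; limma adjusted p = 0.0277). The call was lost without any one of control replicates 1, 2 or 3 or BBMP replicates 1 or 2 (adjusted p from 0.0632 to 0.0680), at differences between 0.69 and 0.86, and kept without BBMP replicate 3, at 0.62. Within slide row 1, which holds control replicate 3 and all BBMP arrays, the difference was 0.95. That value rests on 1 control array, as do all values within this row and the fit with the row as a block, so the calls lost there are no test of the row.

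Akr7a2, the other member of the AKR7 group and a reductase of succinic semialdehyde, was at 5.85, 5.94 and 6.001 in control and 6.16, 6.10 and 6.05 in BBMP samples. Its groups also did not overlap, but its log2 difference of 0.17 ± 0.07 (SE) did not pass (limma adjusted p = 0.132). Array probes of close relatives such as these can share RNA, and which probe reads which gene was not checked against sequence. Akr1a1, the aldehyde reductase that in rodents also serves ascorbate synthesis, was at 6.66, 6.80 and 6.73 in control and 6.81, 6.71 and 6.70 in BBMP samples. Its log2 difference was 0.016, with a 95% confidence interval from -0.15 to 0.18 (limma adjusted p = 0.886), and its sign turned with the scaling. Akr1e2, a reductase of anhydrofructose, did not pass at -0.17, and its 2 other probes had the opposite sign, at 0.13 and 0.16. Akr1b10, an aldose reductase relative, was at 0.20 ± 0.30 (SE) and did not pass.

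Akr1b8, another aldose reductase relative, had the largest fitted difference of all members and was not called. Its log2 signal was 2.45, 0.33 and 0.35 in control and 3.93, 4.83 and 0.92 in BBMP samples. Control replicate 1 stood above BBMP replicate 3, so the groups overlapped. The log2 difference was 2.18 ± 1.14 (SE), with an interval from -0.63 to 4.99 (limma adjusted p = 0.223). Signals spanned 4.35-fold among the control and 15.03-fold among the BBMP animals, and the spread within groups ranked 51 of 31582 genes.

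Aldehyde dehydrogenases of amino acid, amine and one-carbon metabolism had 2 of 6 members called higher and 0 lower, again beside 10.2% and 7.68% of all genes. Aldh8a1, which oxidises a semialdehyde of tryptophan breakdown, was at 2.53, 2.59 and 2.69 in control and 2.97, 3.05 and 2.93 in BBMP samples. All BBMP animals were above all controls, and Aldh8a1 was 1.30-fold higher, with a log2 difference of 0.38 ± 0.07 (SE, n = 3 per group; limma adjusted p = 0.0232). It kept its call without control replicate 3, at 0.42, and lost it without any one of the other 5 arrays, at 0.34 to 0.41 (adjusted p from 0.0579 to 0.0754). Within slide row 1 its difference was 0.30.

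Aldh9a1 encodes the aldehyde dehydrogenase of carnitine synthesis. Its signals lay at 5.99, 6.01 and 5.99 in control and 6.22, 6.17 and 6.22 in BBMP samples. The groups did not overlap, with an SD of 0.012 in control and 0.030 in BBMP samples, the smallest spread within groups of all members. Aldh9a1 was 1.15-fold higher, with a log2 difference of 0.21 ± 0.05 (SE; limma adjusted p = 0.0488). Median scaling gave 0.13 (adjusted p = 0.134), the mean of its probes 0.14 (0.127) and normexp 0.32, still called, while quantile normalization (0.106) and cyclic loess (0.0667) ended the call. Leaving out any single array also ended it, with differences from 0.20 to 0.22 and adjusted p from 0.0943 to 0.128, and within slide row 1 the difference was 0.21. Its other tested probe was at 0.072 and not called.

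Of the other 4 genes in this group none was called by limma. Aldh4a1, which completes proline breakdown to glutamate, was at 6.36, 6.40 and 6.55 in control and 6.31, 6.42 and 6.27 in BBMP samples. Its brightest probe gave -0.10 ± 0.08 (SE; limma adjusted p = 0.393), while its 2 other probes were positive, at 0.30 and 0.40, and the latter passed over all probes (limma adjusted p = 0.0478). The probes of Aldh4a1 thus disagree in sign, and no direction is given for the gene. Aldh6a1, of valine breakdown, was at -0.15 and did not pass, although all 3 BBMP values (1.79 to 1.82) were under all control values (1.85 to 2.12). Aldh18a1, of proline synthesis, was at 0.19 ± 0.09 (SE), with its other probe at -0.14, and Aldh1l2, the mitochondrial formyltetrahydrofolate dehydrogenase, at 0.22 ± 0.13.

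Aldh2, the mitochondrial enzyme that oxidises acetaldehyde, came close to the threshold. Its signals were 5.92, 5.97 and 5.99 in control and 6.23, 6.12 and 6.20 in BBMP samples, without overlap. The log2 difference was 0.23 ± 0.06 (SE; limma adjusted p = 0.0538), and its other probe gave 0.19. Its relative Aldh1b1 ranged from -2.99 to -0.016 in control and from -3.40 to -1.75 in BBMP samples, and its difference of -0.84 ± 0.84 (SE) did not pass. Control replicate 1 stood apart, at -0.016 against -2.26 and -2.99 in the other control animals, and the other probe of Aldh1b1 gave 0.21 ± 0.15.

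None of the 3 fatty and aromatic aldehyde dehydrogenase genes was called by limma, beside 17.9% of all genes called in either direction. Aldh16a1, at -0.064, was not called either. Aldh3a2, the fatty aldehyde dehydrogenase, was at 3.04, 2.96 and 2.82 in control and 3.13, 2.95 and 2.45 in BBMP samples, and its difference of -0.096 had an interval from -0.54 to 0.35. Aldh3a1, which oxidises aromatic and medium-chain aldehydes, was at 0.076, and Aldh3b1 at 0.34 ± 0.14 (SE; limma adjusted p = 0.150), with its other probe at 0.42. Aldh16a1 was at 5.03, 5.13 and 5.12 in control and 5.005, 5.05 and 5.04 in BBMP samples, and its 2 probes disagreed in sign, at -0.064 and 0.28.

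Alcohol dehydrogenases had 0 of 5 members called by limma in either direction, beside 17.9% of all genes. None of the 5 had an unadjusted p under 0.05, a level that 11564 of all 31582 genes passed. Adh1c, the class I enzyme that oxidises ethanol and retinol, was at 5.11, 5.47 and 5.73 in control and 5.99, 5.10 and 5.60 in BBMP samples. The groups overlapped, and its difference of 0.13 had an interval from -0.52 to 0.79 (limma adjusted p = 0.753). Adh5, which clears formaldehyde bound to glutathione, was tightly measured, at 4.81, 4.86 and 4.78 in control and 4.77, 4.79 and 4.77 in BBMP samples. Its interval ran from -0.18 to 0.09 around a difference of -0.043, so a change of 1.5-fold lay outside it. Adh4, Adh6 and Adh6a were at 0.39, 0.36 and -0.025, and none passed (limma adjusted p from 0.288 to 0.950); each of their signs turned with the scaling.

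**Figure D2:**
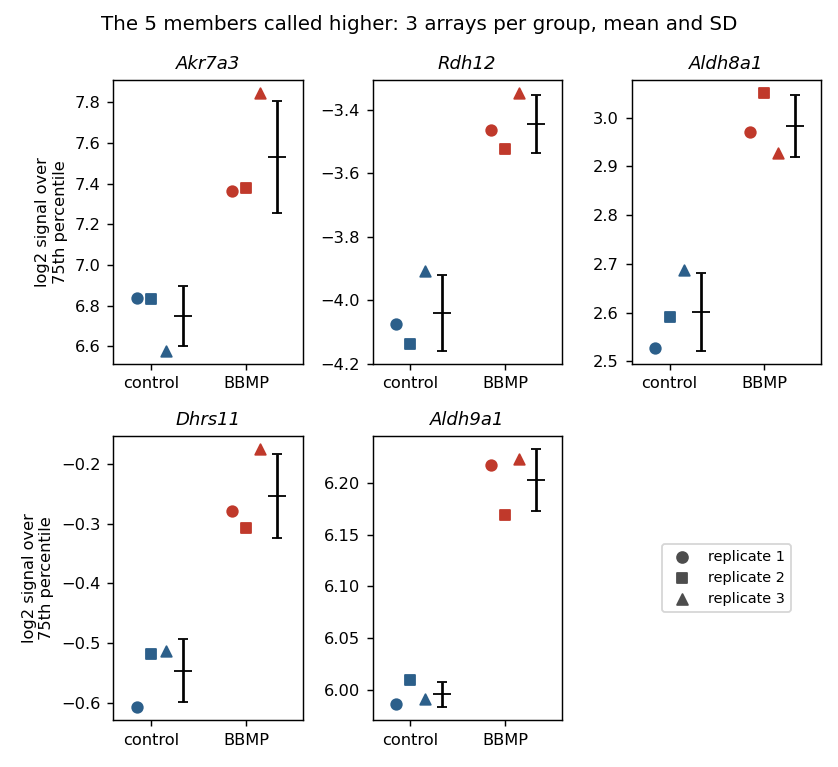
Log2 signal over the array's 75th percentile on each of 6 arrays for the 5 members called higher, with circles, squares and triangles for replicates 1, 2 and 3 and the mean and SD beside them. In each panel all 3 BBMP arrays lie above all 3 control arrays, and the axes differ between panels and do not start at 0.

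Retinol dehydrogenases had 1 of 8 members called higher and 0 lower, beside 10.2% and 7.68% of all genes. Rdh12, which reduces retinaldehyde and is best known from photoreceptors, was at -4.08, -4.14 and -3.91 in control and -3.46, -3.52 and -3.35 in BBMP samples. All BBMP animals were above all controls, and Rdh12 was 1.51-fold higher, with a log2 difference of 0.60 ± 0.09 (SE, n = 3 per group; limma adjusted p = 0.0158). Rdh12 was dim, though its tested probe was well above background on all 6 arrays. With normexp, run with an offset of 50 added to each signal, its difference was 0.092 and not called (limma adjusted p = 0.279). An added offset shrinks the log2 differences of dim probes, and its part in this drop was not tested. The other probes of Rdh12, at mean levels of -8.18 and -8.22 against -3.74, were well above background on 0 arrays and were not tested. Rdh12 kept its call without control replicate 3 or BBMP replicate 3. It lost the call without any one of the other 4 arrays (adjusted p from 0.0503 to 0.0558), and differences were 0.55 to 0.66 over all 6 omissions. Within slide row 1 the difference was 0.46.

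Rdh16, a microsomal retinol dehydrogenase, was at 1.83, 1.79 and 1.35 in control and 2.21, 2.32 and 1.53 in BBMP samples and did not pass (0.37 ± 0.25, SE; limma adjusted p = 0.332), and its 3 other probes had the same sign, at 0.27 to 0.51. Rdh11, another retinaldehyde reductase, had groups without overlap, from 1.54 to 1.62 in control and 1.75 to 1.78 in BBMP samples, and a difference of 0.18 ± 0.06 that did not pass (limma adjusted p = 0.0791). Rdh10, which makes retinaldehyde from retinol, pointed the other way at -0.20 ± 0.10 (SE), with control values from -0.32 to -0.11 and BBMP values from -0.55 to -0.32, and did not pass (limma adjusted p = 0.196). Rdh7, Rdh8, Rdh13 and Rdh14 were not called by limma, at 0.42, 0.23, 0.33 and -0.089.

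Retinaldehyde dehydrogenases, which complete the route to retinoic acid, had 0 of 3 members called by limma, beside 17.9% of all genes. Aldh1a1 was at 6.95, 7.02 and 7.03 in control and 7.02, 6.998 and 7.10 in BBMP samples, with overlap. Its difference of 0.040 had an interval from -0.11 to 0.19 (limma adjusted p = 0.668), and its sign turned with the scaling. Aldh1a2 and Aldh1a3 were at 0.17 ± 0.20 and 0.11 ± 0.10 (SE).

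In the DHRS group 1 of 7 members was called higher and 0 lower, with the same shares of all genes beside it. Dhrs11, a short-chain dehydrogenase that acts on steroids, was at -0.61, -0.52 and -0.51 in control and -0.28, -0.31 and -0.17 in BBMP samples. The groups did not overlap, and Dhrs11 was 1.23-fold higher, with a log2 difference of 0.29 ± 0.07 (SE, n = 3 per group; limma adjusted p = 0.0354). Without any single array it was not called, at 0.25 to 0.32 (adjusted p from 0.0638 to 0.0949), and median scaling gave 0.22 (adjusted p = 0.0683). Within slide row 1 its difference was 0.26.

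Dhrs3, which reduces retinaldehyde to retinol, was at 2.34, 2.53 and 2.51 in control and 2.71, 2.66 and 2.80 in BBMP samples, without overlap, and its difference of 0.26 ± 0.08 (SE) did not pass (limma adjusted p = 0.0695). Dhrs1 likewise did not overlap and did not pass, at 0.24 ± 0.08 (limma adjusted p = 0.0908). Dhrs2l1 was the member with the lowest p among negative differences: it was at -0.084, -0.39 and -0.29 in control and -0.76, -0.43 and -0.94 in BBMP samples, a difference of -0.46 ± 0.15 (SE; limma adjusted p = 0.0913). With normexp Dhrs1, Dhrs3 and Dhrs2l1 were all called, at 0.32, 0.29 and -0.53. Dhrs4, a peroxisomal carbonyl reductase, was at 4.01, 3.94 and 3.95 in control and 3.88, 4.17 and 3.74 in BBMP samples and did not pass (-0.040 ± 0.12, SE), and neither did Dhrs7b, at 0.061.

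Carbonyl reductases, which act on quinones and prostaglandins, had 0 of 3 members called by limma, beside 17.9% of all genes. Cbr1 was at 1.93, 2.04 and 1.91 in control and 2.12, 1.98 and 2.00 in BBMP samples, a difference of 0.073 with an interval from -0.10 to 0.25 and a sign that turned with the scaling. Cbr3 and Cbr4 were at -0.085 ± 0.11 and -0.12 ± 0.12 (SE).

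Aldo-keto reductases of steroids and prostaglandins, the AKR1C group, had 0 of 6 members called by limma, beside 17.9% of all genes. Their differences ran from -0.13 to 0.59. Akr1c1 was at 6.73, 5.85 and 5.59 in control and 5.32, 6.25 and 6.21 in BBMP samples. The difference of Akr1c1 was -0.13 ± 0.39 (SE; limma adjusted p = 0.834). Akr1c13 was at 3.32, 2.25 and 1.33 in control and 1.66, 2.71 and 2.91 in BBMP samples. Akr1c12l1 was at 1.92, 0.87 and -0.51 in control and 0.67, 1.90 and 1.49 in BBMP samples. In each of these genes control replicate 1 was highest and control replicate 3 lowest among controls, and BBMP replicate 1 was lowest among BBMP animals. Akr1c19, at 2.20, 1.92 and 1.39 in control and 1.65, 1.99 and 2.19 in BBMP samples, and Dhrs7l1 of the DHRS group, at 2.88, 1.18 and -0.95 in control and 0.89, 2.51 and 2.29 in BBMP samples, had the same arrangement. Signals of Dhrs7l1 spanned 14.2-fold among the control animals. Probes of the AKR1C genes, close relatives of each other, can also share RNA and were not checked against sequence. The AKR1C genes may thus not be separate cases of the arrangement. Akr1c12 and Akr1c15 did not pass either, at -0.030 ± 0.21 and 0.31 ± 0.40 (SE).

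That arrangement of animals, noticed after the values were seen, held for 7 of 50 members (14%), for 6.13% of all genes tested, and for 15.5% of the 1580 genes with the widest spread within groups. Adh6 and Akr7a3 were the other members with it. In Akr7a3 it rested on narrow gaps: control replicates 1 and 2 were at 6.839 and 6.833, and BBMP replicates 1 and 2 at 7.365 and 7.380. Of the members, 8 were among the 5% of genes with the widest spread: Akr1b8, Dhrs7l1, Aldh1b1, Akr1c12l1, Akr1c13, Rdh7, Akr1c15 and Akr1c1. Of these 8, Dhrs7l1, Akr1c12l1, Akr1c13 and Akr1c1 had the arrangement, and Akr1b8, Aldh1b1, Rdh7 and Akr1c15 did not. The 14% is a share of all members, so its match in the 15.5% is not like for like. Among the 12 proximal tubule markers, 2 had it, Slc7a13 and Slc22a7, and the other markers did not. By spread within groups Slc7a13 and Slc22a7 ranked 188 and 220 of 31582 genes. Slc5a1 ranked 6270 and was among the markers without the arrangement. It was at -1.34, -1.82 and -1.30 in control and -1.51, -1.16 and -1.08 in BBMP samples. Slc7a13 was at 5.95, 3.85 and 3.05 in control and 3.83, 5.40 and 4.94 in BBMP samples, and Slc22a7 at -1.11, -3.33 and -3.35 in control and -3.12, -1.29 and -1.96 in BBMP samples. The part of tubule segment content in the spread of the AKR1C genes was not tested.

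**Figure D3:**
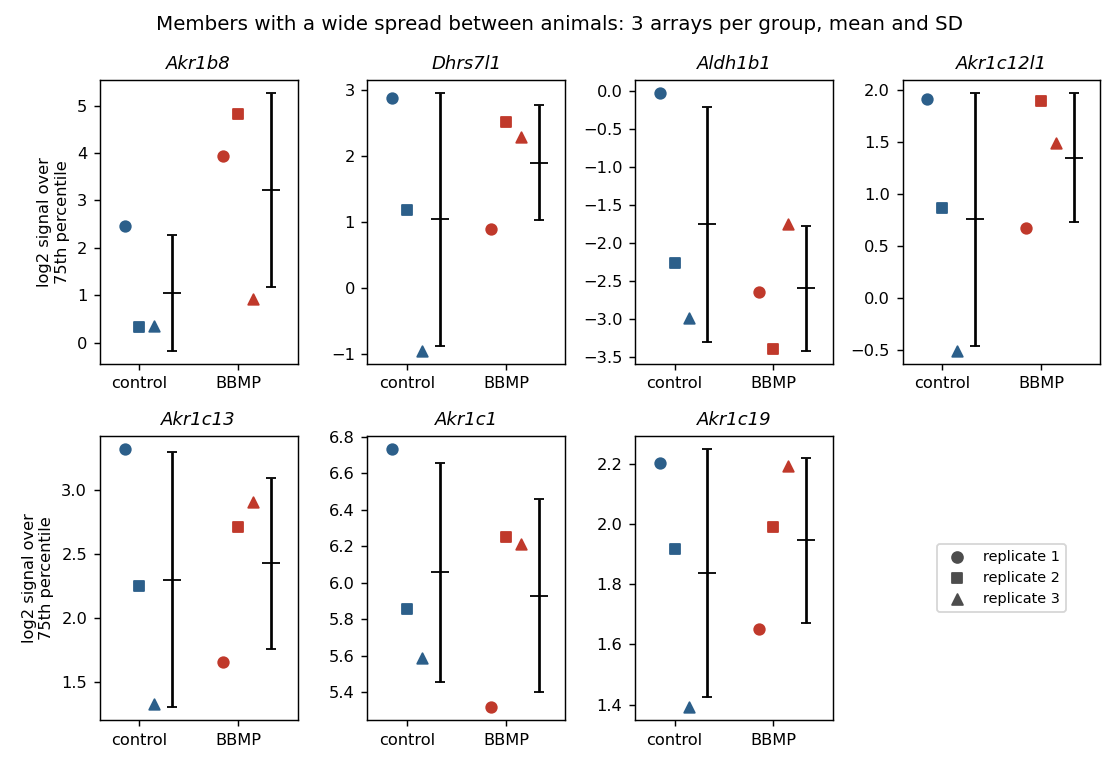
Log2 signal over the array's 75th percentile on each array for 7 members with a wide spread between animals, with circles, squares and triangles for replicates 1, 2 and 3 and the mean and SD beside them. In Dhrs7l1, Akr1c12l1, Akr1c13, Akr1c1 and Akr1c19 control replicate 1 is the highest and control replicate 3 the lowest control, and BBMP replicate 1 is the lowest BBMP animal. The axes differ between panels.

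Of the 50 members, 22 had more than 1 tested probe, and all probes had the same sign in 12 of them and opposite signs in 10. Of the 5 called members, only Aldh9a1 had a further tested probe. The sign of the difference was the same under 6 scalings in 39 members and turned in 11, none of them called. Median scaling moves all genes by the same -0.075, and Aldh1a1, Cbr1 and Dhrs7b turned only there, through that shift.

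**Figure D4:**
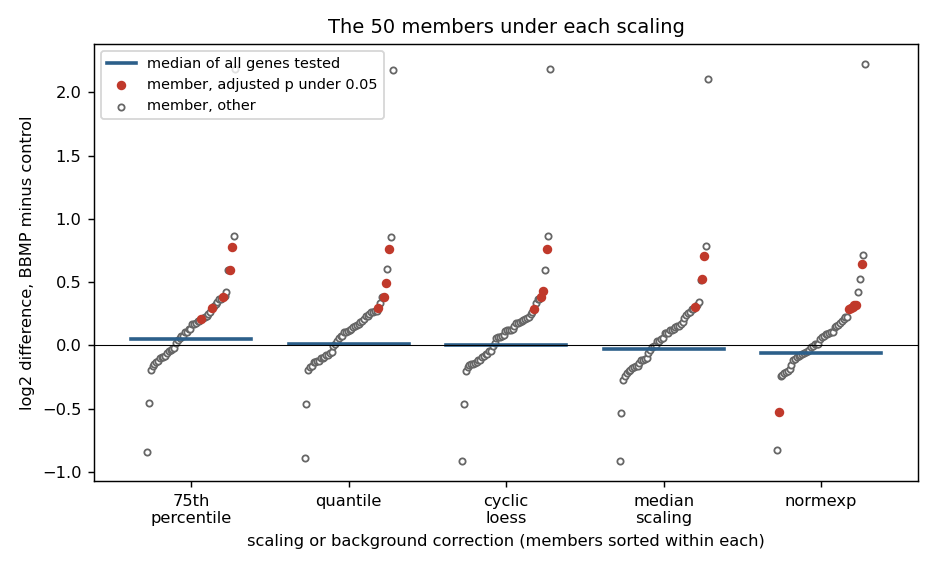
Log2 difference, BBMP minus control, of the 50 members under 5 scalings or background corrections, sorted within each, with members called by limma filled. The bar is the median of all genes tested, which was 0.049 with the 75th percentile and -0.062 with normexp.

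Genes around these enzymes were read from lists outside the members, and their counts stand beside 10.2% of all genes called higher and 7.68% called lower. Of 18 tested genes of retinoid handling, 1 rose and 1 fell: Rara, a retinoic acid receptor, fell by 0.78 ± 0.07 on the log2 scale (SE; limma adjusted p = 0.0108), and Rxrb, a retinoid X receptor, rose by 0.32 ± 0.07 (adjusted p = 0.0383). Of 29 tested genes that make or remove aldehydes and other carbonyls, 3 rose and 1 fell: Nqo1, a quinone reductase, rose by 0.99, Tkfc, a kinase of dihydroxyacetone and glyceraldehyde, by 0.25 and Sgpl1, which releases a fatty aldehyde from sphingosine phosphate, by 0.23, while Maoa, an amine oxidase, fell by 0.46. Of 34 other short-chain dehydrogenases and steroid oxidoreductases, 4 rose and 3 fell. Blvrb, biliverdin reductase B, rose by 0.63 and the steroid 5-alpha-reductase gene Srd5a2 by 0.52, while Hsd11b2, which inactivates corticosterone, fell by 0.48 and Hsd17b12 by 0.45.

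NRF2 is a transcription factor that responds to oxidants and electrophiles. Of its 29 tested targets, 6 rose and 0 fell, with Gstp1 at 1.25, Ephx1 at 1.01, Nqo1 at 0.99 and Abcc4 at 0.71 on the log2 scale. Other well-known targets on the list did not pass: Hmox1 was at 0.41 ± 0.12 (SE; limma adjusted p = 0.0638) and Txnrd1 at -0.080 ± 0.078. Srxn1 was at 0.62 ± 0.39, Gclc at 0.40 ± 0.71 and Gclm at 0.20 ± 0.53. With errors this wide, neither a change nor its absence is shown for Srxn1, Gclc and Gclm. Of 31 targets of PPAR alpha, a receptor for fatty acids, 3 rose and 0 fell: Hadha, at 0.53, Acaa1a, at 0.47, and Cyp4a1, at 0.44, all of fatty acid oxidation, a share close to the 10.2% of all genes called higher. The medians of the 5 lists were 0.14, 0.050, 0.045, 0.13 and 0.086 in the order given, beside 0.15 for the members and 0.049 for all genes.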

How the data were processed

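Per the file headers, Agilent Feature Extraction 10.7.1.1 produced the scanner files, and the deposited intensity values are linear processed signals, beside deposited scores of 0 or 1 that mark spots as well above background, saturated or outliers. The authors' deposited table holds 1 ratio per probe and array. Each of its columns matched another scanner file of its own group, as processed signal over the 75th percentile with no centring (column medians 0.1064 to 0.1131), so replicate numbers are uncertain and groups are not. Its making is not stated in the sources used here.

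Of 61657 probes, 84 ERCC probes and 10 with an outlier flag were left out. Values were log2 signals minus the array's 75th percentile. Genes were named through unversioned RefSeq accessions, and the probe with the highest mean log2 signal stood for its gene. Control and BBMP arrays were set against each other in limma 3.58.1 (R 4.3.3), with moderated variances and no covariate, after tests on simulated data. Plots used matplotlib 3.10.9. With 3 arrays per group, their number limits the precision. The members and gene lists were chosen with earlier results of these data known. Values on each array are given for all called members, for the brightest other member of each role group and for some further members. Same-numbered samples did not deviate together (correlations across genes of -0.12, -0.082 and -0.068). The promoter sequence of another member is not reported here.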

Additional observations from a re-analysis of the deposited data

How the results depend on the processing

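Of 110 values of the 5 called members under 22 alternatives, 60 kept their call, 50 lost it and 0 changed direction. The groups of all 5 did not overlap, so leaving out any array could not turn a sign. Replicate blocks and changes of moderation or filter left each fitted difference as it was. The count of 0 is thus no test of direction in those fits. Against 5 members called higher, 3 were called with median scaling or with no filter on dim probes and 8 with trend and robust moderation. Normexp, run here on the median signal with an offset of 50, called 1 lower. Of all genes tested, median scaling called 6.66% higher, no filter 4.59% and trend and robust moderation 11.5%, and normexp called 16.1% lower. Leaving out 1 array gave 0 to 2 members called higher and 3 to 4002 genes called in all, against 5659. In a fit blocked on slide row, and in one restricted to row 1 (chosen after seeing the data), limma called 0 of all genes, with 10 and 8 members at an unadjusted p under 0.05, and 7288 and 7178 of all genes. In both, the contrast rests on control replicate 3 as the lone control, assumed to vary like the other arrays, so the count of 0 says nothing about slide row.

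With the replicate number as a block, limma called 0 genes and 0 members, with 9943 genes and 10 members at an unadjusted p under 0.05. The numbers are not known to pair the animals. Akr7a3 then had an adjusted p of 0.0964.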
